A study of Mus musculus with 4 samples.

Results

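The genes described here are 10 genes of conventional dendritic cells: Zbtb46, Xcr1, Clec9a, Itgae, Cd209a, Clec10a, Ccr7, Batf3, Irf8 and Naaa. They were taken by exact gene name, and all 10 were found among the 23337 gene names of the deposited tables, on 1 row each. RNA had been sequenced from macrophages sorted from the liver of Lyz2cre-RosaYFP reporter mice, male and female, aged 6 to 8 weeks. These mice make Cre recombinase from the lysozyme gene Lyz2, which is active in monocytes, macrophages and neutrophils. A cell that has made Cre, or that descends from one that did, carries YFP, a yellow fluorescent protein. There were 2 libraries of YFP+ cells and 2 of YFP- cells, and the labels enter YFP+ or YFP- as the genotype. Each group had 1 library titled M and 1 titled FM, letters that the labels leave unexplained. The labels do not say whether the libraries came from separate animals or pools, so the spread between them may be technical.

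Conventional dendritic cells take up antigen, carry it to lymph nodes and present it to T cells. The type 1 subset depends on the transcription factors Irf8 and Batf3 and displays Xcr1 and Clec9a, and the type 2 subset is in mouse often recognised by Cd209a and the galactose lectin Clec10a together with Irf4. The liver holds few of these cells next to its resident macrophages, the Kupffer cells.

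Kupffer cell markers were present in all 4 libraries. The 12 genes of that list summed to 35370 and 33800 TPM (transcript abundance scaled by the authors to gene length and library) in the YFP+ M and FM libraries, against 6444 and 14520 TPM in YFP- M and FM. Markers of microglia, the macrophages of the brain, summed to 1200 and 111 TPM in YFP+ M and FM, against 19420 and 18340 TPM in YFP- M and FM. All 12 were called lower in YFP+, where 39.5% of all tested genes were. All 12 were also lower after quantile normalization, where 1.67% of all tested genes were. The median tested gene was lower in YFP+ by 1.73 on the log2 scale (by 1.01 for M libraries and by 2.48 for FM libraries), so changes of the 10 genes below are also given relative to that median. Read coverage at 1 FPKM (median over genes), the measure of depth in these files, was 4.81 and 2.60 in YFP+ M and FM and 9.19 and 2.59 in YFP- M and FM. Genes at 1 TPM or more numbered 10302 and 7386 in YFP+ M and FM, against 12434 and 12829 in YFP- M and FM. The top 100 genes held 54.0% and 66.1% of TPM in YFP+ M and FM, against 40.9% and 29.7% in YFP- M and FM.

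Of the 10 dendritic cell genes, 6 were lower in YFP+ libraries (Zbtb46, Xcr1, Clec9a, Itgae, Cd209a and Ccr7), none was called higher, and Clec10a, Batf3, Irf8 and Naaa did not pass. The test was limma with a mean trend on log2(TPM + 1), Benjamini-Hochberg adjusted over 12251 genes at a threshold of 0.05; at an unadjusted p under 0.05 the counts were the same, 0 higher and 6 lower. Of all tested genes 39.5% were called lower and 0.522% higher. The median log2 fold change of the 10 genes was -2.545, which is 0.814 below that of all tested genes. For 8 of the 10, both YFP+ libraries lay below both YFP- libraries, as they did for 79.7% of tested genes, and Batf3 was the 1 gene with both YFP+ libraries above, as were 2.5% of tested genes. All 10 passed the filter of at least 1 TPM in at least 2 libraries, Zbtb46 only through its YFP- libraries. In these bulk samples fewer dendritic cells and less of each RNA per cell cannot be told apart. The calls depended on scaling and on single libraries. After quantile normalization limma called 0 of the 10, where 1.67% of tested genes were called lower and 1.21% higher, with 2 of the 10 lower and 1 higher at an unadjusted p under 0.05. Cyclic loess also called 0 of the 10 by limma (1 lower and 1 higher at an unadjusted p under 0.05; 0.327% of tested genes lower and 0.531% higher). Median-ratio scaling called Itgae lower and Batf3 higher (5.9% of tested genes lower and 5.62% higher). With title start as a block Zbtb46 alone was called (14.1% lower and 0.188% higher), and with the block on quantile-normalized values Itgae and Cd209a were lower and Batf3 higher (5.31% lower and 6.14% higher). Fewer of the 10 were called without YFP- FM, YFP- M or YFP+ FM, as were fewer of all tested genes. Without YFP+ M more of all tested genes were called lower, but no more of the 10. With YFP- FM, YFP- M, YFP+ FM or YFP+ M left out, the median log2 fold change of the 10 was -1.997, -2.875, -2.124 and -2.963. That of all tested genes was -1.525, -1.97, -1.236 and -2.254.

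**Figure D1:**
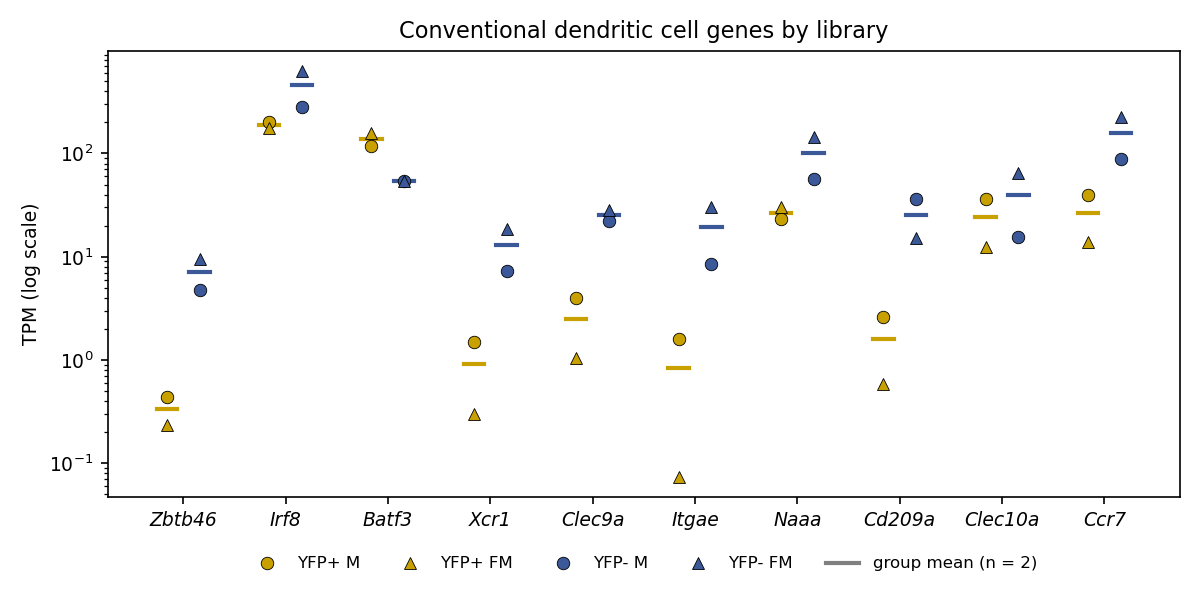
TPM of each gene in each library on a log axis; points are libraries (circles, title start M; triangles, FM) and lines are group means of n = 2, with YFP+ left of YFP-. Batf3 is the gene whose YFP+ points both lie above its YFP- points, while the points of Clec10a overlap between the groups.

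The transcription factors did not move together. Zbtb46, a zinc finger factor that among immune cells marks conventional dendritic cells and their committed precursors and is also made by endothelium, had 0.441 and 0.233 TPM in YFP+ M and FM, against 4.78 and 9.55 TPM in YFP- M and FM. The groups did not overlap, and read coverage in YFP+ was under 1 (0.903 and 0.296). Its log2 fold change was -2.55 (SE 0.66, 95% interval -3.84 to -1.26, limma adjusted p = 0.00143), or -0.82 relative to the median gene. Zbtb46 lies on chromosome 2 at 181390886 to 181459426 (coordinates here are those of the files, for which GRCm38 and mm10 are named). Of 10 tested endothelial markers 7 were called lower, against 39.5% of all tested genes, and 0 higher (0 higher at an unadjusted p under 0.05 by limma). The other 3 lay above the median of all tested genes. After quantile normalization 3 were called lower, against 1.67% of all tested genes. The endothelial markers summed to 371 and 190 TPM in YFP+ M and FM, against 1426 and 1416 TPM in YFP- M and FM. Their part in the Zbtb46 value was not tested.

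Irf8, the interferon regulatory factor on which type 1 dendritic cells depend and which B cells, monocytes and microglia also make, was the most abundant of the 10. It had 203 and 176 TPM in YFP+ M and FM, against 284 and 629 TPM in YFP- M and FM, without overlap (chromosome 8, 120736376 to 120756692). The difference did not pass (log2 fold change -1.16, SE 0.85, 95% interval -2.82 to 0.51, limma adjusted p = 0.240) and was 0.57 above that of the median gene. Under median-ratio scaling its sign turned (1.14, limma adjusted p = 0.350). The part of microglia RNA, whose marker sums are given above, in the level of Irf8 was not tested.

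Batf3, the AP-1 family factor that partners Irf8 in type 1 dendritic cells, stood apart in direction. It had 119 and 159.5 TPM in YFP+ M and FM, against 54.34 and 54.35 TPM in YFP- M and FM, so its YFP+ libraries were both higher (chromosome 1, 191098414 to 191108943). The log2 fold change was 1.33 (SE 0.96, 95% interval -0.56 to 3.22), which did not pass (limma adjusted p = 0.236). Relative to the median gene it was 3.06, and 98.9% of tested genes had a lower log2 fold change. Its sign held under quantile normalization (2.57, adjusted p = 0.0569), median-ratio scaling (3.59, adjusted p = 0.00623, called) and cyclic loess (2.43, adjusted p = 0.0980), all by limma. The difference was 1.12 between the M libraries and 1.54 between the FM libraries.

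Other factors of these cells also differed in direction. Id2, an inhibitor of E proteins that type 1 dendritic cells need and many other cells make, was called higher: 1189 and 1721 TPM in YFP+ M and FM, against 218 and 313 TPM in YFP- M and FM (log2 fold change 2.45, SE 0.78, limma adjusted p = 0.00934, and 0.0575 after quantile normalization). Jun, an AP-1 partner of Batf factors, fell to 69.2 and 43.4 TPM in YFP+ M and FM, against 164 and 543 TPM in YFP- M and FM (log2 fold change -2.42, limma adjusted p = 0.0289, and 0.269 after quantile normalization). Spi1, which encodes PU.1 and is listed in the files as Sfpi1, had 578 and 834 TPM in YFP+ M and FM, against 280 and 485 TPM in YFP- M and FM, and did not pass (limma adjusted p = 0.320). The close relatives of Batf3, Batf and Batf2, did not pass either (log2 fold changes 0.53 and 0.93, limma adjusted p = 0.666 and 0.467), and Batf2 was called higher after quantile normalization (2.73, adjusted p = 0.0360).

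Ratios between genes within a library are not changed by scaling a whole library by 1 factor, though quantile normalization and loess can change them; the pairs were chosen after the values were seen and were not tested. Batf3 per Irf8 was 0.588 and 0.906 in YFP+ M and FM, against 0.191 and 0.0864 in YFP- M and FM. Batf3 per Clec9a was 29.8 and 152.5 in YFP+ M and FM, against 2.45 and 1.91 in YFP- M and FM. Irf8 and Batf3 together made up 74.7% and 85.1% of the summed TPM of the 10 genes in YFP+ M and FM, against 58.6% and 56.0% in YFP- M and FM. By contrast Clec9a per Xcr1, a pair of type 1 surface receptors, overlapped between the groups at 2.65 and 3.45 in YFP+ M and FM and 3.08 and 1.53 in YFP- M and FM.

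**Figure D2:**
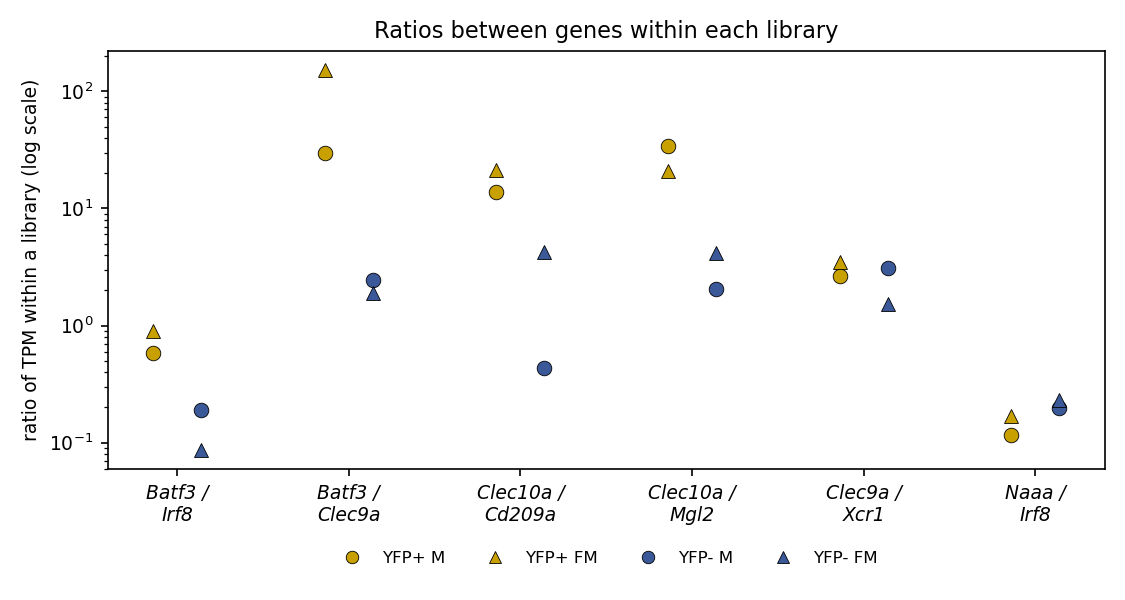
Ratio of TPM of named gene pairs within each library, on a log axis; each point is 1 library, with YFP+ left of YFP-. The Batf3 per Irf8 ratio is 0.588 and 0.906 in YFP+ and 0.191 and 0.0864 in YFP- libraries, while the Clec9a per Xcr1 ratios overlap.

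Surface receptors of the type 1 subset were lower in YFP+ libraries on the deposited values. Xcr1, the receptor for the chemokine Xcl1 of T and NK cells, had 1.51 and 0.303 TPM in YFP+ M and FM, against 7.21 and 18.6 TPM in YFP- M and FM (log2 fold change -2.81, SE 0.91, 95% interval -4.59 to -1.03, limma adjusted p = 0.0106; chromosome 9, 123852315 to 123862029). Clec9a, a lectin that binds actin filaments exposed by dead cells, had 4.002 and 1.05 TPM in YFP+ M and FM, against 22.2 and 28.5 TPM in YFP- M and FM (-3.03, SE 1.1, 95% interval -5.26 to -0.81, limma adjusted p = 0.0262; chromosome 6, 129408862 to 129424764). In both genes the YFP+ FM library was the lowest and the groups did not overlap. Relative to the median gene they were at -1.08 and -1.30. Clec9a shares 184 exonic bases with its neighbour Clec1b on the same strand, so its value is uncertain to that extent.

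Itgae encodes CD103, the integrin chain that pairs with Itgb7 and binds E-cadherin, and is made by type 1 dendritic cells and by tissue T cells. It had 1.61 and 0.0743 TPM in YFP+ M and FM, against 8.58 and 30.3 TPM in YFP- M and FM (log2 fold change -3.37, SE 0.97, 95% interval -5.28 to -1.47, limma adjusted p = 0.00421; chromosome 11, 73090595 to 73147449). Relative to the median gene this was -1.64, and 3.82% of tested genes lay lower; the YFP+ FM value rests on a coverage of 0.131. After median-ratio scaling Itgae was the 1 gene of the 10 still called lower (-2.07, limma adjusted p = 0.0230). Of 10 tested T and NK cell genes 5 were called lower, against 39.5% of all tested genes, and 0 higher. At an unadjusted p under 0.05 by limma 9 were lower and 0 higher. All 10 lay below the median of all tested genes, and their own median was 0.627 below it. None was called after quantile normalization (limma), and the list summed to 239 and 115 TPM in YFP+ M and FM, against 1390 and 580 TPM in YFP- M and FM; its part in the Itgae value was not tested. Itgb7 had 46.1 and 36.5 TPM in YFP+ M and FM, against 39.7 and 236 TPM in YFP- M and FM, and did not pass (-1.23, limma adjusted p = 0.287).

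Naaa encodes a lysosomal amidase that degrades fatty acid ethanolamides and is abundant in type 1 dendritic cells. It had 23.4 and 30.0 TPM in YFP+ M and FM, against 56.4 and 145 TPM in YFP- M and FM, without overlap (chromosome 5, 92257660 to 92278181). Its log2 fold change of -1.74 (SE 1.0, 95% interval -3.73 to 0.26, limma adjusted p = 0.143) lay within 0.01 of the median of all genes. Its sign turned under median-ratio scaling (0.52, limma adjusted p = 0.601). Its relative Asah1, acid ceramidase, had 133 and 68.1 TPM in YFP+ M and FM, against 187 and 400 TPM in YFP- M and FM (-1.51, limma adjusted p = 0.150).

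The start regions of these genes differ in base composition, which is shown because Batf3 and Irf8, the most abundant of the 10 in YFP+ libraries, contrast with the scarce receptors Clec9a and Xcr1. The RefSeq table (GRCm38.p6) matched 7 of the 10 genes with 8 starts, of which Irf8 has 2; the first is shown. Each sequence below holds the 250 bases before the start, 5′ to 3′ on the gene's strand, with CG dinucleotides in capitals; they lie at chr1:191098164-191098413 (plus strand, Batf3), chr8:120736108-120736357 (plus, Irf8), chr6:129408612-129408861 (plus, Clec9a) and chr9:123862030-123862279 (minus, Xcr1).
Batf3: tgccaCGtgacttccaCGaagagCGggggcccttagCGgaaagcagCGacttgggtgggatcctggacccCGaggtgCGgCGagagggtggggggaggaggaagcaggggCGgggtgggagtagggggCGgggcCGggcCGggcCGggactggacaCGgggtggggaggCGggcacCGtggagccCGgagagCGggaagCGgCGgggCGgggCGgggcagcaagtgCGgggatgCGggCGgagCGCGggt
Irf8: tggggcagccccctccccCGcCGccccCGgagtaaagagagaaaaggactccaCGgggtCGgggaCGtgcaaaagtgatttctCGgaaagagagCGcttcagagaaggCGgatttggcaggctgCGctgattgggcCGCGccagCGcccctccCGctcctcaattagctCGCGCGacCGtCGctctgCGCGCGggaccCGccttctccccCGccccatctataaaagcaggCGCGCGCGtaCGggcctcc
Clec9a: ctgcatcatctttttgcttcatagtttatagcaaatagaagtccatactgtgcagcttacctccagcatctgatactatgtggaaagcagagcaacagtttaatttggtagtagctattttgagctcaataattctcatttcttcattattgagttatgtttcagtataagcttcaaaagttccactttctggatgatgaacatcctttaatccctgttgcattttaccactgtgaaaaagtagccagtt
Xcr1: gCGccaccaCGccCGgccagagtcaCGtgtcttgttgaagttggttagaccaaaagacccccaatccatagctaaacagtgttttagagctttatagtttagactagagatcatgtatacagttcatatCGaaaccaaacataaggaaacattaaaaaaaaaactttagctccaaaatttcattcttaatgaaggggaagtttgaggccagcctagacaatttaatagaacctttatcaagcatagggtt

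The Batf3 and Irf8 windows hold 27 and 29 CG dinucleotides and are 76% and 67.2% G or C, above 96.7% and 86.5% of 32851 mouse start regions. The window of the second Irf8 start (chr8:120738389-120738638) holds 8 at 54% G or C, above 55.2% of start regions, so the contrast does not hold for it. The Clec9a and Xcr1 windows hold 0 and 5, at 35.6% and 38.8% G or C, above 5.41% and 9.7% of start regions. The median start region holds 6 CG. By CG count Batf3 and Irf8 lie above 91.4% and 93.2% of start regions, and Xcr1 above 44.4%, so Xcr1 is low in G or C but not in CG. Naaa lies between, at 59.2% with 10 CG, Cd209a is low, at 44.8% with 1 CG, and the 250 bases before the Zbtb46 start, which lies inside the gene span of the files, hold 0 CG at 51.6%. The bases just after the Naaa start matched the beginning of no GENCODE transcript of Naaa, so its window is uncertain. Because the Zbtb46 start lies inside the gene span, its window, and the AP-1 match in it given below, are uncertain too. On either strand, GGAA followed after any 2 bases by GAAA (the joint PU.1 and IRF element) occurs in none of the 8 windows and in 2.3% of all start regions. GAAA followed after any 2 bases by GAAA (an interferon response type, which can overlap the first) occurs in none of the 8 and in 2.98% of all. The AP-1 letters TGANTCA occur in 1 of the 8, that of Zbtb46, and in 6.75% of all. The PU.1 core GAGGAA occurs in 1 of the 8, that of Batf3, and in 23.3% of all. These are matches of letters in short windows and no measure of factor binding.

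The type 2 lectins differed from each other. Cd209a, a mouse relative of human DC-SIGN, had 2.62 and 0.587 TPM in YFP+ M and FM, against 35.9 and 15.3 TPM in YFP- M and FM (log2 fold change -3.35, SE 1.1, 95% interval -5.52 to -1.19, limma adjusted p = 0.0122; chromosome 8, 3743395 to 3748984). Relative to the median gene it was at -1.62. YFP+ minus YFP- was -3.35 for M libraries and -3.36 for FM libraries, the closest pair of values among the 10 genes. Clec10a, a galactose-binding lectin of dendritic cells and macrophages, had 36.1 and 12.5 TPM in YFP+ M and FM, against 15.4 and 64.5 TPM in YFP- M and FM, with overlap (chromosome 11, 70166623 to 70170836). It lay 1.18 above the median gene. It did not pass (-0.55, SE 1.1, 95% interval -2.67 to 1.56, limma adjusted p = 0.661), its sign differed between the title starts (1.17 for M and -2.27 for FM), and it turned under quantile normalization, median-ratio scaling and loess.

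Clec10a has a near copy, Mgl2, in the same cluster. Of 2283 windows of 50 bases in its longest coding transcript 242 occur also in Mgl2, so both genes' values are uncertain to that extent; how such reads were assigned was not tested. Mgl2, which in mouse marks type 2 dendritic cells and some macrophages, had 1.06 and 0.598 TPM in YFP+ M and FM, against 7.48 and 15.4 TPM in YFP- M and FM (log2 fold change -2.70, SE 0.89, limma adjusted p = 0.0120, and 0.390 after quantile normalization). Clec10a per Mgl2 was 34.0 and 21.0 in YFP+ M and FM, against 2.065 and 4.201 in YFP- M and FM, and Clec10a per Cd209a was 13.8 and 21.4 in YFP+ M and FM, against 0.431 and 4.22 in YFP- M and FM. Cd209a shares no such window with another gene, and its relative Cd209d had 0.498 and 0.134 TPM in YFP+ M and FM, against 10.1 and 1.74 TPM in YFP- M and FM (-2.08, limma adjusted p = 0.00165), and passed the filter only through its YFP- libraries.

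Ccr7, the receptor for Ccl19 and Ccl21 that guides mature dendritic cells to lymph nodes and is also found on naive T cells and B cells, had 39.4 and 13.8 TPM in YFP+ M and FM, against 89.0 and 224 TPM in YFP- M and FM (chromosome 11, 99144199 to 99155077). The groups did not overlap, and YFP+ minus YFP- was -1.16 for M libraries and -3.93 for FM libraries. The log2 fold change was -2.54 (SE 1.0, 95% interval -4.50 to -0.57, limma adjusted p = 0.0339), or -0.81 relative to the median gene. With FPKM in place of TPM it did not pass (-1.98, limma adjusted p = 0.0554), while the other 5 did (30.8% of tested genes lower and 1.02% higher). Its ligand gene Ccl19 reached at most 1.46 TPM, in YFP- M, and Ccl21a was listed at 0 in all 4 libraries. Both are listed on 2 rows, which were summed, and an exact 0 can be a failed estimate, so absence of the ligands is not shown. Of 6 tested B cell genes 3 were called lower, near the 39.5% of all tested genes, and 0 higher (0 higher at an unadjusted p under 0.05 by limma), with a sum of 563 and 86.1 TPM in YFP+ M and FM, against 672 and 655 TPM in YFP- M and FM; their part in Ccr7 was not tested.

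**Figure D3:**
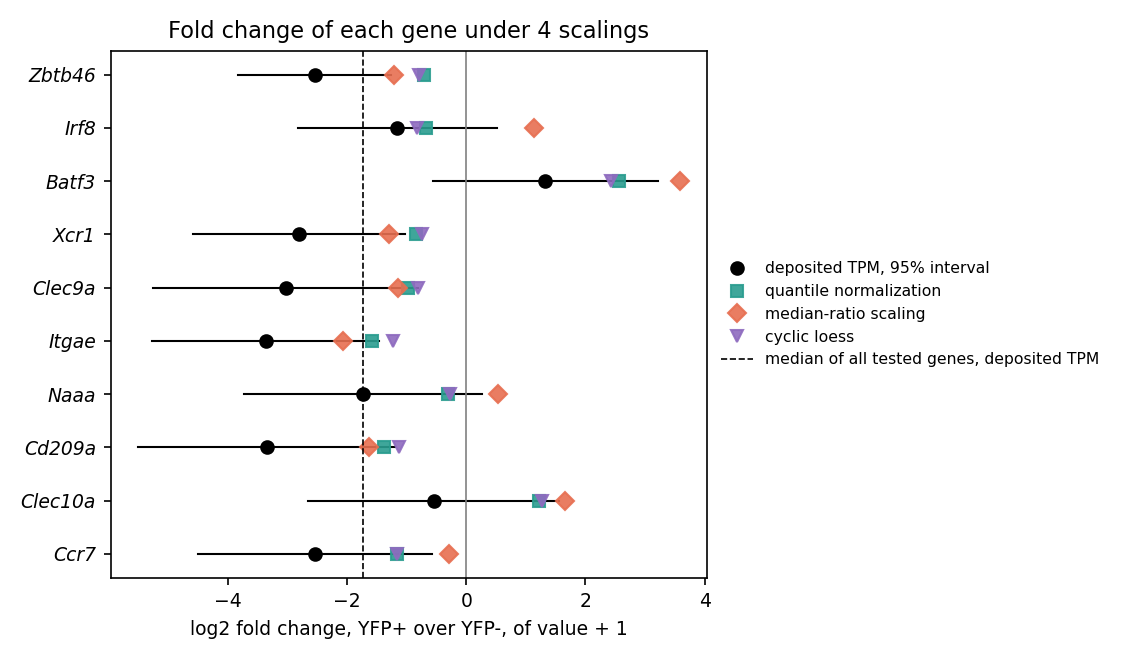
Log2 fold change of each gene, YFP+ over YFP-; black points are the deposited TPM with the 95% interval of limma, and coloured points are the values after 3 rescalings of the libraries. The dashed line is the median of all tested genes, -1.73; Batf3 lies above 0 in each case and Clec10a changes sign.

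**Figure D4:**
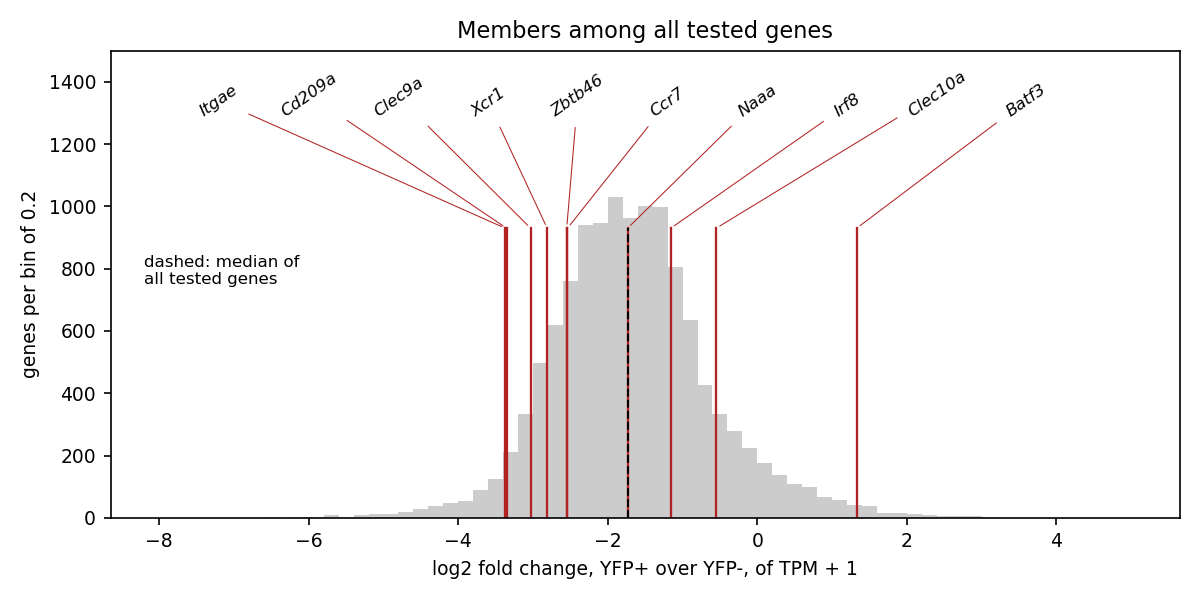
Distribution of the log2 fold change (YFP+ over YFP-) of 12251 tested genes in bins of 0.2, with red lines at the 10 genes. Of these, 7 lie below the dashed median of all genes and 3 (Irf8, Clec10a and Batf3) above it.

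Wider lists of dendritic cell genes, which include some of the 10, also held more genes called lower than higher on the deposited values. Of 14 genes shared by conventional dendritic cells 10 were called lower and 1 higher, with a median log2 fold change of -2.65. Those lower included Flt3, the receptor for the growth factor that dendritic cells need (1.17 and 0.128 TPM in YFP+ M and FM, against 3.36 and 21.65 TPM in YFP- M and FM; log2 fold change -2.67, limma adjusted p = 0.00515), the integrin Itgax or CD11c (9.65 and 2.45 TPM in YFP+ M and FM, against 22.1 and 117 TPM in YFP- M and FM; -3.11, limma adjusted p = 0.0212) and the inhibitory receptor Btla (-3.81, limma adjusted p = 0.00608). The 1 higher was Cd74, the MHC class II invariant chain that macrophages and B cells also make (17500 and 23780 TPM in YFP+ M and FM, against 7197 and 6190 TPM in YFP- M and FM; 1.61, limma adjusted p = 0.0134, with the sign turned to -0.25 under loess). The count lower was 3 without YFP+ FM, 2 without YFP- M, 1 without YFP- FM, 3 with the block and 4 under median-ratio scaling. Zbtb46, Kit and Hepacam2 passed the filter only through YFP-. None of the 14 was called after quantile normalization by limma, where P2ry10 came nearest (-2.36, adjusted p = 0.0568).

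Of 20 type 1 genes 10 were called lower and 1, Id2, higher, with a median log2 fold change of -1.65. Under median-ratio scaling 1 was lower and 4 higher, where 5.9% of all tested genes were lower and 5.62% higher. Under quantile normalization with the block 1 was lower and 3 higher, where 5.31% of all tested genes were lower and 6.14% higher. Without YFP+ FM 1 was lower, and 2 without YFP- M, without YFP- FM or with the block; 6 were lower with FPKM and 5 with a filter at 5 TPM. Gcet2 and Sept3 passed the filter only through YFP-. Lower were the RNA sensor Tlr3 (2.15 and 0.336 TPM in YFP+ M and FM, against 15.4 and 18.0 TPM in YFP- M and FM; -3.10, limma adjusted p = 0.0124) and Cd24a (-2.41, limma adjusted p = 0.0494), while the adhesion molecule Cadm1 (-0.33, limma adjusted p = 0.785) and Wdfy4, which cross-presentation requires (-1.63, limma adjusted p = 0.203), did not pass. Of 16 type 2 genes 8 were called lower and 0 higher (0 higher at an unadjusted p under 0.05), with a median of -1.78. The count lower was 4 with a pseudocount of 0.1 or with FPKM, 5 with no filter, 1 under median-ratio scaling (and 1 higher), and 2 with the block or without YFP+ FM, YFP- M or YFP- FM. Clec4a4 and Cd209d passed the filter only through YFP-. Irf4, the factor of this subset, was lower (4.79 and 0.950 TPM in YFP+ M and FM, against 14.5 and 30.8 TPM in YFP- M and FM; -2.73, limma adjusted p = 0.0422), as was Sirpa, which macrophages make too (-1.89, limma adjusted p = 0.0445, with the sign turned to 0.41 under median-ratio scaling). Klf4, another factor on the type 2 list, went the other way. It had 112 and 173 TPM in YFP+ M and FM, against 77.1 and 123 TPM in YFP- M and FM, with overlap. It did not pass (0.51, limma adjusted p = 0.638) but was called higher under median-ratio scaling (2.79, limma adjusted p = 0.0270). Clec12a, on the same list, did not pass either (-0.57, limma adjusted p = 0.615). None of the genes of the type 1 or type 2 list was called after quantile normalization by limma.

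Of 15 tested mature dendritic cell genes 4 were called lower and 0 higher (1 higher at an unadjusted p under 0.05, Marcksl1), with a median of -1.27 that became 0.315 after quantile normalization. The count lower rose without YFP+ M and fell without any other library, as it did over all tested genes. Under median-ratio scaling 1 was lower and 2 higher. The count lower was 2 with a pseudocount of 0.1, no filter or a filter at 5 TPM, and 1 with FPKM or the block. Cacnb3 and Nudt17 passed the filter only through YFP-. The actin bundler Fscn1, which microglia and endothelium can also make, fell most, to 15.2 and 3.08 TPM in YFP+ M and FM, against 193 and 388 TPM in YFP- M and FM (-5.08, limma adjusted p = 0.000146, and 0.0311 after quantile normalization). Cd83 (550 and 415 TPM in YFP+ M and FM, against 383 and 970 TPM in YFP- M and FM), Cd40 and Cd86 did not pass (limma adjusted p = 0.703, 0.8997 and 0.0763). Against 39.5% of all tested genes, the shares called lower were 71.4% of the shared list, 50% each of the type 1 and type 2 lists and 26.7% of the mature list.

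**Figure D5:**
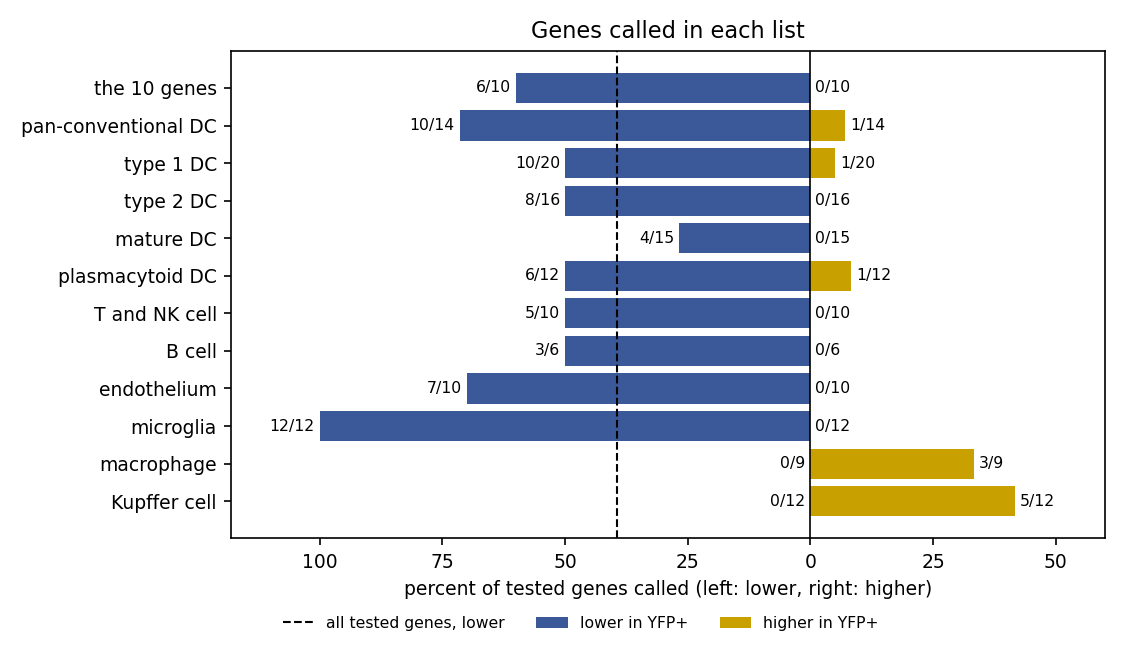
Percent of the tested genes of each list called lower (left, blue) or higher (right, yellow) in YFP+ libraries by limma, with the counts beside each bar. The dashed line is the share of all tested genes called lower, 39.5%, and 0.522% of them were called higher. The 10 genes have 6 lower and 0 higher, and the Kupffer cell list has 0 lower and 5 higher (0 higher after quantile normalization).

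Genes with the most similar profile over the 4 libraries were sought among 8283 tested genes with a mean of at least 5 TPM, by the Euclidean distance between centred log2(TPM + 1) values. Nearest to Irf8 were Mfsd10, Zfp574 and Cdc42bpb, at distances of 0.0963 to 0.108. Nearest to Zbtb46 were Rgs3, Gja4, a gap junction gene of arteries, and Ttc28, at 0.124 to 0.161. Nearest to Xcr1 were Gpsm1, Wdr20a and Hdac11, at 0.110 to 0.117. The 100th nearest gene was still within 0.349, 0.528 and 0.371, so with 4 libraries many genes share each profile.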

How the data were processed

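Each of the 4 libraries has its own gene table, in which, per the file headers, the authors deposited read coverage (a signal not scaled to depth), FPKM and TPM per gene. Per the submitters' processing notes HISAT was used, with GRCm38 and mm10 as builds; strandedness and the quantifying program were not given in the sources used here. The files hold no read counts, so depth in reads is unknown, and an exact 0 can be a failed estimate. TPM sums to 1000000 per library, so values of all genes in a library are tied together. The members and gene lists were chosen with earlier results of these data known.

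Rows of one name were summed, and the 12251 genes that reached 1 TPM in 2 or more libraries were tested as log2(TPM + 1), a scale that understates changes of low genes, with limma 3.58.1 in R 4.3.3 (mean trend, two-sided, Benjamini-Hochberg, threshold 0.05). The model held the YFP group alone; limma gave the variance trend infinite prior weight, so each p rests on the trend over all genes. With 2 libraries a group, 0.333 is the smallest two-sided p of an exact permutation test. The fit was tested on simulated data. Alternatives were other pseudocounts, filters and scalings, FPKM, no mean trend, the title start as a block, and each library left out. Named genes beyond the 10 follow a fixed rule (highest mean TPM or smallest adjusted p per list); Flt3, Tlr3, Wdfy4, Cadm1, Irf4, Mgl2, Batf, Batf2, Cd40, Xcl1, Flt3l, Syk, Spib, Ccl19 and Ccl21a were named for their roles after their values were seen. Of the list entries, 7 matched through an older symbol and 3 (Trac, Trbc2 and Ighm) were not matched. Overlapping genes and shared windows came from GENCODE M21 (GRCm38). Tables and plots were made in Python 3.11.15 with pandas 2.3.3, matplotlib 3.10.9, NumPy 2.4.6 and SciPy 1.17.1.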

Additional observations from a re-analysis of the deposited data

Results flagged for a closer look

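Clec10a differed in opposite directions in the M and FM libraries: YFP+ minus YFP- was 1.17 on the log2(TPM + 1) scale between the M libraries and -2.27 between the FM libraries. With 1 library per group and title start this difference was not tested.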

How the results depend on the processing

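A pseudocount of 0.1, no filter and the fit without a mean trend kept the 6 called genes. Over all genes the lower count moved to 3078 with a pseudocount of 0.1 and 2902 with a filter at 5 TPM, where Zbtb46 was not tested, and FPKM moved the higher count to 115. Genes called higher numbered 148 after quantile normalization and 689 after median-ratio scaling. Those called lower numbered 205 and 723, and 40 after loess. Of the 10 genes, quantile normalization and loess called 0 lower (2 and 1 at an unadjusted limma p under 0.05), and median-ratio scaling 1 lower (Itgae) and 1 higher (Batf3). The median of the 10 genes moved to -0.78, -0.72 and -0.80 and that of all genes to -0.032, -0.082 and -0.0088, in the order quantile, median-ratio and loess.

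The labels give no pairing, so the main fit held no block. Deviations from the group means were uncorrelated between libraries of the same title start (r = -0.0113 across genes). With 2 libraries a group this cannot show that the libraries are unpaired. With title start as a replicate block, limma called 23 genes higher and 1726 lower, and 1 of the 10 lower (Zbtb46). With the block on quantile-normalized values 752 were higher and 650 lower, and of the 10 genes 1 was higher (Batf3) and 2 lower (Itgae and Cd209a), with medians of -0.78 and -0.032.

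With each library left out, its partner was assumed to vary like the other group. All-gene counts then ranged from 14 to 105 higher and from 865 to 8273 lower, and the median of the 10 genes from -2.963 to -1.997. With the filter also applied again, an alternative chosen after seeing the data, counts were 42 higher and 8280 lower without YFP+ M, 12 and 971 without YFP+ FM, 71 and 26 without YFP- M, and 41 and 24 without YFP- FM. Of the 10 genes 0 to 6 were lower: 6 without YFP+ M, 1 without YFP+ FM (Zbtb46), 1 without YFP- M (Zbtb46, or 0 with the filter again, where it was not tested) and 0 without YFP- FM.

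The sign of Clec10a reversed under quantile normalization (1.22, also with the block), median-ratio scaling (1.65), loess (1.26) and without YFP+ FM or YFP- FM (0.18 and 0.45; range over libraries left out -1.55 to 0.45). Irf8 (1.14) and Naaa (0.52) reversed under median-ratio scaling. The cause was not tested. Batf3 kept a positive and Zbtb46, Xcr1, Clec9a, Itgae, Cd209a and Ccr7 a negative sign in every alternative run. Coverage under 1 limits the YFP+ values of Zbtb46 and the YFP+ FM values of Xcr1 and Itgae.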

Other observations

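Plasmacytoid dendritic cells, which make type I interferon and also need Irf8, left a mixed record. Of 12 genes 6 were called lower (50%, against 39.5% of all tested genes) and 1 higher by limma, at a median log2 fold change of -1.73, equal to that of all tested genes, and 0.129 after quantile normalization. The higher gene was Irf7, an interferon regulatory factor that many cells make (1197 and 1522 TPM in YFP+ M and FM, against 147 and 499 TPM in YFP- M and FM; 2.31, adjusted p = 0.0141, and 0.123 after quantile normalization). Siglech, which microglia share, fell most (40.7 and 1.77 TPM in YFP+ M and FM, against 753 and 659 TPM in YFP- M and FM; -6.04, adjusted p = 6.845e-07). Bst2 (0.91, adjusted p = 0.416) and Spib (-1.52, adjusted p = 0.229) did not pass. Runx2, Pacsin1 and Cd300c, counted as lower, passed the filter only through their YFP- libraries.

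Among partners of the 10 genes, the chemokine Xcl1, ligand of Xcr1, had 12.9 and 15.3 TPM in YFP+ M and FM, against 177 and 25.2 TPM in YFP- M and FM, and did not pass (-2.19, limma adjusted p = 0.0799). Flt3l, the ligand of Flt3, had 20.1 and 4.86 TPM in YFP+ M and FM, against 23.3 and 18.4 TPM in YFP- M and FM (-0.97, limma adjusted p = 0.457). Syk, the kinase through which Clec9a signals, had 105 and 39.6 TPM in YFP+ M and FM, against 81.2 and 230 TPM in YFP- M and FM (-1.07, limma adjusted p = 0.331). Marcksl1, on the mature dendritic cell list, had 609 and 709 TPM in YFP+ M and FM, against 130 and 260 TPM in YFP- M and FM (1.83, limma adjusted p = 0.0621). Of the 12 tested genes of this ligand and partner list 2 were called lower (16.7%, against 39.5% of all tested genes), Clec7a and Jun. None was called higher (0 higher at an unadjusted limma p under 0.05). Of 9 monocyte genes 4 were lower (44.4%, near the 39.5% of all tested genes) and 0 higher (0 at an unadjusted limma p under 0.05). Of 9 general macrophage genes 0 were lower (1 at an unadjusted limma p under 0.05). The 3 higher were C1qa, C1qb and C1qc, where 0.522% of all tested genes were called higher. None of the 9 was called higher after quantile normalization, and the signs of these 3 turned under loess (-0.153, -0.241 and -0.277).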
